A study of Mus musculus with 8 samples.

Results

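TCR alpha clonotypes were described in 8 pooled libraries of maternal or recipient cells from 1-week-old mouse pups after in-utero transplantation (IUT). A clonotype here was 1 line of the authors' MiXCR tables, that is, a rearranged receptor sequence with its CDR3, V segment, J segment and read count. It was a TCR alpha (TRA) clonotype where its best J hit was a TRAJ segment. By this rule 1107 of the 14428 clonotypes of all immune receptor chains were TRA clonotypes, with 14251 reads.

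Dams carried CD11c-DTR, a diphtheria toxin receptor transgene driven by the CD11c promoter, on a C57BL/6 (B6) background and were mated with BALB/c males, so all pups were F1 hybrids. The fetuses of the mIUT group received 5000000 B6 bone marrow mononuclear cells, of the strain of the dam, at embryonic day 14, and those of the pIUT group the same number of BALB/c cells, of the strain of the sire. In the DT+pIUT group the dam was also given diphtheria toxin (DT) at 5 ng/g on embryonic day 13, which removes CD11c+ cells, whereas dams of the mIUT and pIUT groups were given saline and the uninjected pups received no transplant. Whether the dams of the uninjected pups in these pools were given DT or saline is not given in the sources used here. Maternal cells (H2K-b) and recipient cells (H2K-d) were sorted from whole-body harvests that included primary and secondary lymphoid organs. They were pooled over several pups, more in the uninjected group than in each transplanted group, and sequenced as 1 library per group. There were therefore no replicate libraries, and no comparison below has a test between animals. Donor BALB/c cells also carry H2K-d and donor B6 cells H2K-b. Donor-derived cells may thus be present in the recipient pIUT and DT+pIUT libraries and in maternal mIUT, and were not separated here.

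T cells assemble the TCR alpha chain in the thymus from 1 V and 1 J segment, cut by the RAG recombinase and rejoined by end-joining enzymes. Terminal deoxynucleotidyl transferase (TdT, gene Dntt) can add non-templated N bases between them, and it is scarce in fetal and early neonatal thymocytes. Rearrangement of the locus starts with the V and J segments that lie nearest to each other and can move stepwise to more distant V and J segments on the same chromosome, and a clonotype whose V and J do not keep the reading frame, or that holds a stop codon, encodes no receptor and is called nonproductive.

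On GRCm39 the locus lies on the forward strand of chromosome 14. The V array of 135 annotated Trav and Trdv segments spans chr14:52665385-54312972, the 60 Traj segments span chr14:54392462-54456299, and the constant gene Trac follows at chr14:54457978-54461663. V segments were ranked from 1, nearest to the J array, to 135. J segments are numbered downwards toward Trac, so that TRAJ61 lies nearest to the V array. Segments from TRAJ31 upwards were called 5′ J, and V ranks 1 to 45 were called proximal. Many V segments exist in near-identical D and N copies (TRAV6-7, TRAV6D-7 and TRAV6N-7, for instance), so V use is given by family wherever a copy does not matter.

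Junctions that carry the main findings are printed here from the deposited tables, 5′ to 3′, over the CDR3 from the conserved cysteine codon, with the bases that MiXCR placed in neither V nor J (N bases) in capitals. The first set holds the largest clonotype of each library by reads, shown because it gives the range from junctions with several N bases to a junction with none.
maternal uninjected, TRAV3-1 with TRAJ23: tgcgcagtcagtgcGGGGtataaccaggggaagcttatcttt
maternal mIUT, TRAV1 with TRAJ27: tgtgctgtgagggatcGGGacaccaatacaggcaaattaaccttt
maternal pIUT, TRAV6D-6 with TRAJ21: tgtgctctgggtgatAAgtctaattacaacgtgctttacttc
maternal DT+pIUT, TRDV1 with TRAJ57: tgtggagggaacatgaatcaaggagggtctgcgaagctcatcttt
recipient uninjected, TRAV3N-3 with TRAJ16: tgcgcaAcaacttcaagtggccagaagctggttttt
recipient mIUT, TRAV9D-2 with TRAJ44: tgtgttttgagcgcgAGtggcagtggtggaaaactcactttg
recipient pIUT, TRAV17 with TRAJ57: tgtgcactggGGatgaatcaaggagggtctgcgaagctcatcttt
recipient DT+pIUT, TRAV6D-7 with TRAJ12: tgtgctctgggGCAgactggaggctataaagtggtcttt

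These clonotypes held 85, 378, 68, 16, 451, 15, 23 and 16 reads, in the same order. Every one of them was productive, and only the maternal DT+pIUT junction had 0 N bases as placed by MiXCR. The bases between its TRDV1 part and its TRAJ57 part, ca, match neither germline end on GRCm39. Of the 6 junctions without N bases in that library, 3 left no base when read against the genome.

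A second set shows how a junction without N bases is spelled by the germline alone. One CDR3 of TRAV21-DV12 with TRAJ56, in the recipient pIUT library with 6 reads and in the recipient DT+pIUT library with 11 reads, is set beside the GRCm39 sequence of the last 30 bases of Trav21-dv12 (chr14:54114180-54114209) and of Traj56 (chr14:54396720-54396782).
TRAV21-DV12 germline end: cggctgtgtaccactgtatcctgagagtag
TRAJ56 germline: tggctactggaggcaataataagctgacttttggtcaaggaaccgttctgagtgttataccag
CDR3 without N bases: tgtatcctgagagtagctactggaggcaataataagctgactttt

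TRA clonotypes were most numerous in the recipient pIUT library, with 463, followed by 285 in maternal uninjected, 271 in recipient DT+pIUT and 57 in recipient mIUT. The other 4 libraries held very few, with 2 in maternal mIUT, 8 in maternal pIUT, 12 in maternal DT+pIUT and 9 in recipient uninjected. Reads were 7019, 510, 312 and 85 in the maternal uninjected, mIUT, pIUT and DT+pIUT libraries and 2155, 281, 2829 and 1060 in the recipient libraries in that order. Libraries with few clonotypes were thus not always poor in reads, since recipient uninjected had 239.4 reads per TRA clonotype and recipient DT+pIUT 3.91. Drawn down to 85 reads each, the libraries were expected to show 69.0 clonotypes in maternal uninjected, 75.8 in recipient pIUT and 70.8 in recipient DT+pIUT, but 85 reads can show at most 85 clonotypes, so that numbers this near the limit do not separate the libraries. Gene counts summed to between 38543457 and 47965130 per library. Shares below carry 95% Wilson intervals, which cover the counting of clonotypes only, because reads without molecular identifiers are not independent molecules and 1 pool of pups stands for each group. Libraries with fewer than 20 usable clonotypes enter no difference.

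Trac, the constant gene of the alpha chain, measured the same chain in the gene count table. Its level was 296.2 CPM (counts scaled to the library total) in maternal uninjected, 32.8 in maternal mIUT, 16.2 in maternal pIUT and 3.81 in maternal DT+pIUT. In recipient cells it was 63.0 in uninjected, 11.7 in mIUT, 115.1 in pIUT and 44.2 in DT+pIUT. In bulk RNA, fewer T cells and less Trac RNA per cell cannot be told apart. The ratio of Trac counts to the summed counts of the beta constant genes Trbc1 and Trbc2 was highest in maternal uninjected, at 0.351, and lowest in maternal DT+pIUT, at 0.0113. It was 0.193 in recipient uninjected, 0.174 and 0.182 in maternal mIUT and pIUT, and 0.0770, 0.0400 and 0.0532 in recipient mIUT, pIUT and DT+pIUT. Clonotype lines gave the lowest ratio in maternal DT+pIUT too, with 0.0281 TRA lines for each TRB line, but the highest in maternal pIUT, with 0.889 from 8 TRA lines. The ratio was 0.534 in maternal uninjected, 0.143 in maternal mIUT, 0.409 in recipient uninjected and 0.169, 0.113 and 0.221 in recipient mIUT, pIUT and DT+pIUT.

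J segment use separated the maternal uninjected library from the recipients of transplants. Clonotypes with a 5′ J segment were 130 of 285 (45.6%, interval 39.9 to 51.4%) in maternal uninjected, 41 of 57 (71.9%, 59.2 to 81.9%) in recipient mIUT, 369 of 463 (79.7%, 75.8 to 83.1%) in recipient pIUT and 241 of 271 (88.9%, 84.6 to 92.1%) in recipient DT+pIUT. Recipient pIUT was higher than maternal uninjected by 34.1 percentage points (Newcombe 95% interval 27.1 to 40.7) and recipient DT+pIUT by 43.3 (36.1 to 49.8). Recipient DT+pIUT was also above recipient pIUT, by 9.23 points (3.75 to 14.3), whereas recipient mIUT and recipient pIUT differed by -7.77 points with an interval of -21.0 to 2.96 that holds 0. Counting only TRAJ42 and higher numbers as 5′ J, this last difference was -16.9 points (-29.4 to -3.16) and excluded 0. Among nonproductive clonotypes 5′ J was found in 22 of 46 of maternal uninjected, 16 of 20 of recipient mIUT, 83 of 105 of recipient pIUT and 23 of 31 of recipient DT+pIUT. There recipient pIUT and DT+pIUT again exceeded maternal uninjected, by 31.2 points (14.7 to 46.5) and 26.4 (3.98 to 44.7), but recipient DT+pIUT differed from recipient pIUT by -4.85 points, with an interval of -23.5 to 10.1 that holds 0. Cell origin and transplantation both differ between maternal uninjected and the recipients of transplants, and the part of each cannot be told apart in the large libraries. The recipient uninjected library, which shares the origin of the latter, had 5′ J in only 3 of 9 clonotypes (12.1 to 64.6%), and the maternal DT+pIUT library in 11 of 12 (64.6 to 98.5%). In maternal mIUT it was 0 of 2 and in maternal pIUT 5 of 8.

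The same order held at the far end of the array. J segments numbered 21 and below, which lie nearest to Trac, made up 32.6% of maternal uninjected clonotypes (93 of 285), 12.3% in recipient mIUT, 10.4% in recipient pIUT and 3.32% in recipient DT+pIUT (9 of 271). The median J number was 27, 38, 44 and 48 in these libraries. Of the 60 annotated J segments 45 were used, and 15 had no clonotype in any library, of which 8 are annotated as pseudogenes.

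**Figure D1:**
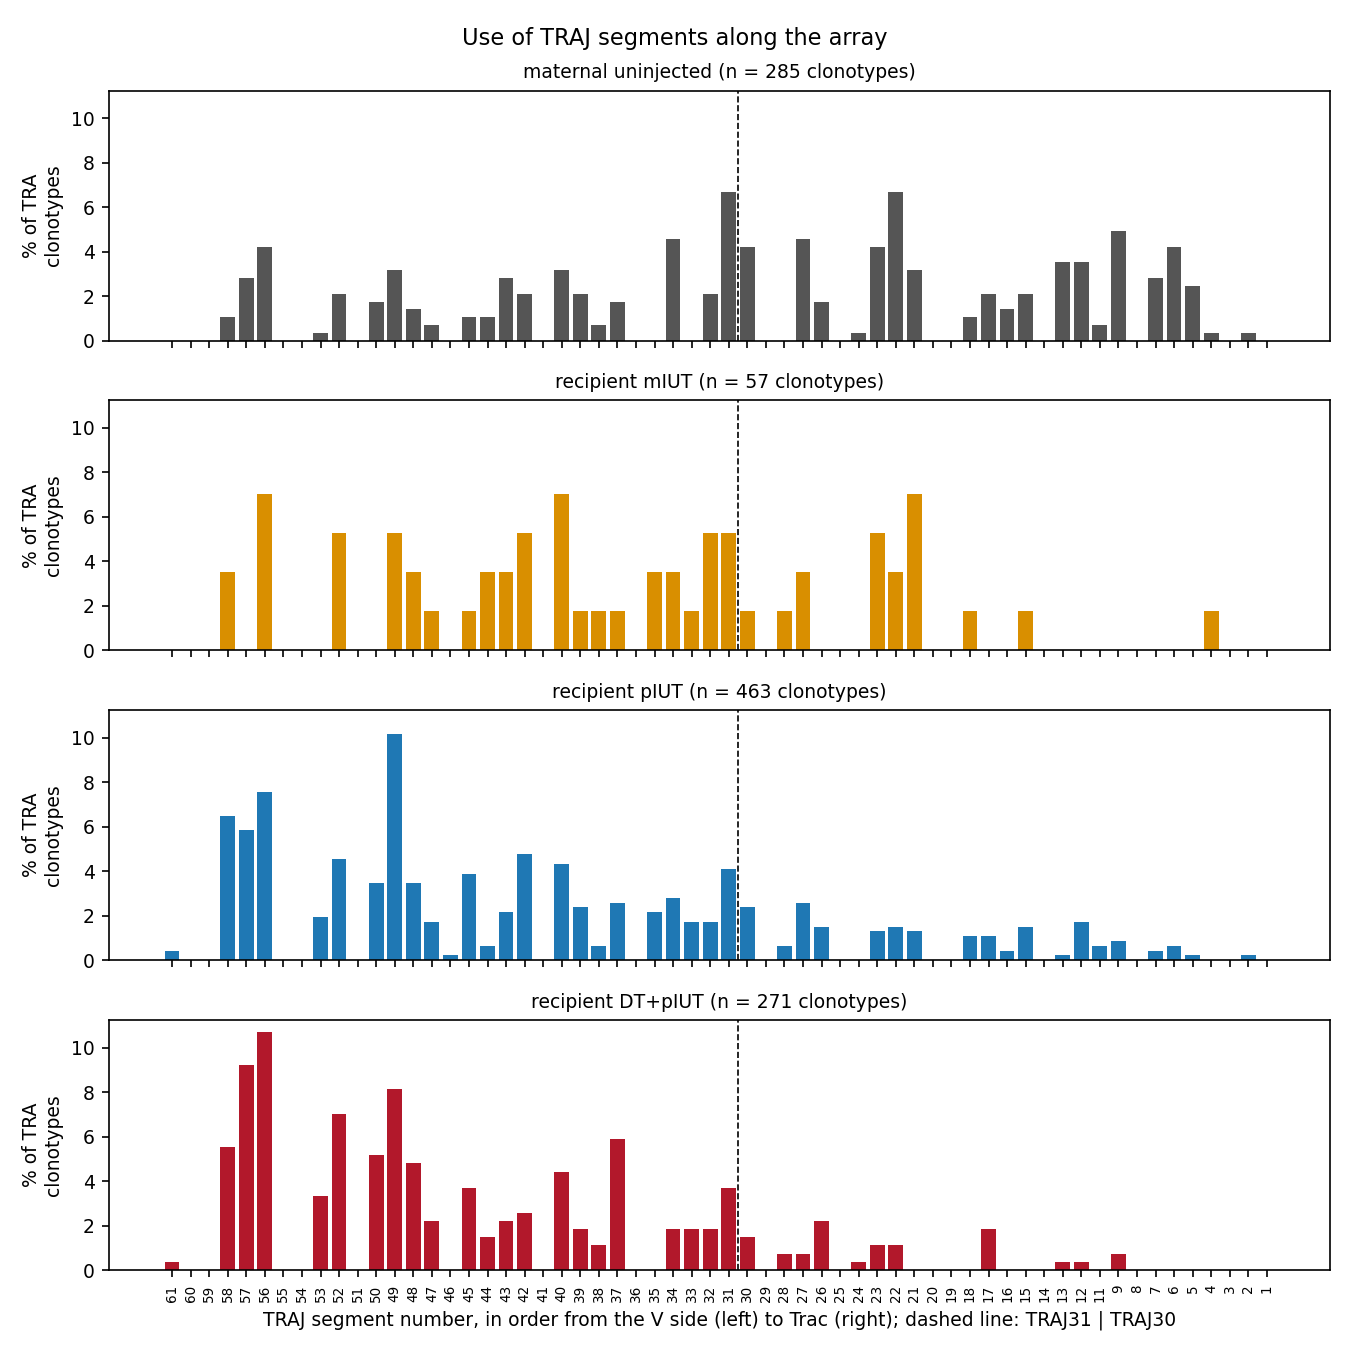
Percentage of TRA clonotypes (vertical axis) that used each TRAJ segment, placed in array order from the V side to Trac (horizontal axis), in the 4 libraries with over 50 clonotypes; the dashed line parts TRAJ31 from TRAJ30. Bars of the maternal uninjected library run across the whole array, whereas those of recipient DT+pIUT crowd to the left, with 88.9% left of the line.

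The J segments with the highest mean share over these 4 libraries were TRAJ56, TRAJ49, TRAJ31, TRAJ40 and TRAJ52, all of them 5′ J. TRAJ56 (chr14:54396720-54396782) took 4.21% of clonotypes in maternal uninjected, 7.02% in recipient mIUT, 7.56% in recipient pIUT and 10.7% in recipient DT+pIUT. TRAJ49 (chr14:54406143-54406204) took 3.16%, 5.26%, 10.2% and 8.12%. TRAJ31, the last segment counted as 5′, took 6.67% in maternal uninjected and 4.10% in recipient pIUT, with 51 clonotypes in all against 28 for its neighbour TRAJ30 just outside the limit. TRAJ40 lay between 3.16% and 7.02% and TRAJ52 between 2.11% and 7.01%.

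Chosen for the size of the difference between maternal uninjected and recipient pIUT, and therefore given without an interval, TRAJ49, TRAJ58 and TRAJ56 were higher in the recipient pIUT library by 6.99, 5.43 and 3.35 points. TRAJ22, TRAJ9 and TRAJ6 differed by -5.15, -4.05 and -3.56 points. TRAJ58 (chr14:54394737-54394799) had 3 clonotypes of 285 in maternal uninjected and 30 of 463 in recipient pIUT. TRAJ22 (chr14:54434705-54434764) had 19 and 7, and TRAJ6 (chr14:54450145-54450206) had 12 and 3. In the recipient DT+pIUT library TRAJ58 had 15 clonotypes of 271, TRAJ22 had 3 and TRAJ6 had 0. Its TRAJ57 share was 9.23%, compared with 5.83% in recipient pIUT and 2.81% in maternal uninjected, and in maternal DT+pIUT TRAJ57 accounted for 5 of 12 clonotypes. Of these 5 lines 2 held the same CDR3 under different V copies, and 1 line of 1 read with 12 N bases did not end in the bases that the other 4 share. The J segment nearest to V that was used was TRAJ61, annotated as a pseudogene, with 3 clonotypes, and the farthest was TRAJ2, with 2.

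V segments of 24 families were used. The 5 families with the highest mean share were TRAV14, TRAV6, TRAV7, TRAV4 and TRAV12, each of which has members along much of the array. TRAV14 was the largest in maternal uninjected, at 20.7% (59 of 285), and took 7.02%, 14.9% and 14.4% in recipient mIUT, pIUT and DT+pIUT. TRAV6 lay within 9.94 to 10.7% in all 4 libraries, TRAV7 within 8.49 to 12.3%, TRAV4 within 7.72 to 12.5% and TRAV12 within 5.90 to 10.2%. Between maternal uninjected and recipient pIUT, TRAV14, TRAV5 and TRAV12 differed most downwards (-5.80, -3.02 and -2.40 points) and TRAV4, TRDV1 and TRAV13 most upwards (4.81, 3.32 and 1.86 points).

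**Figure D2:**
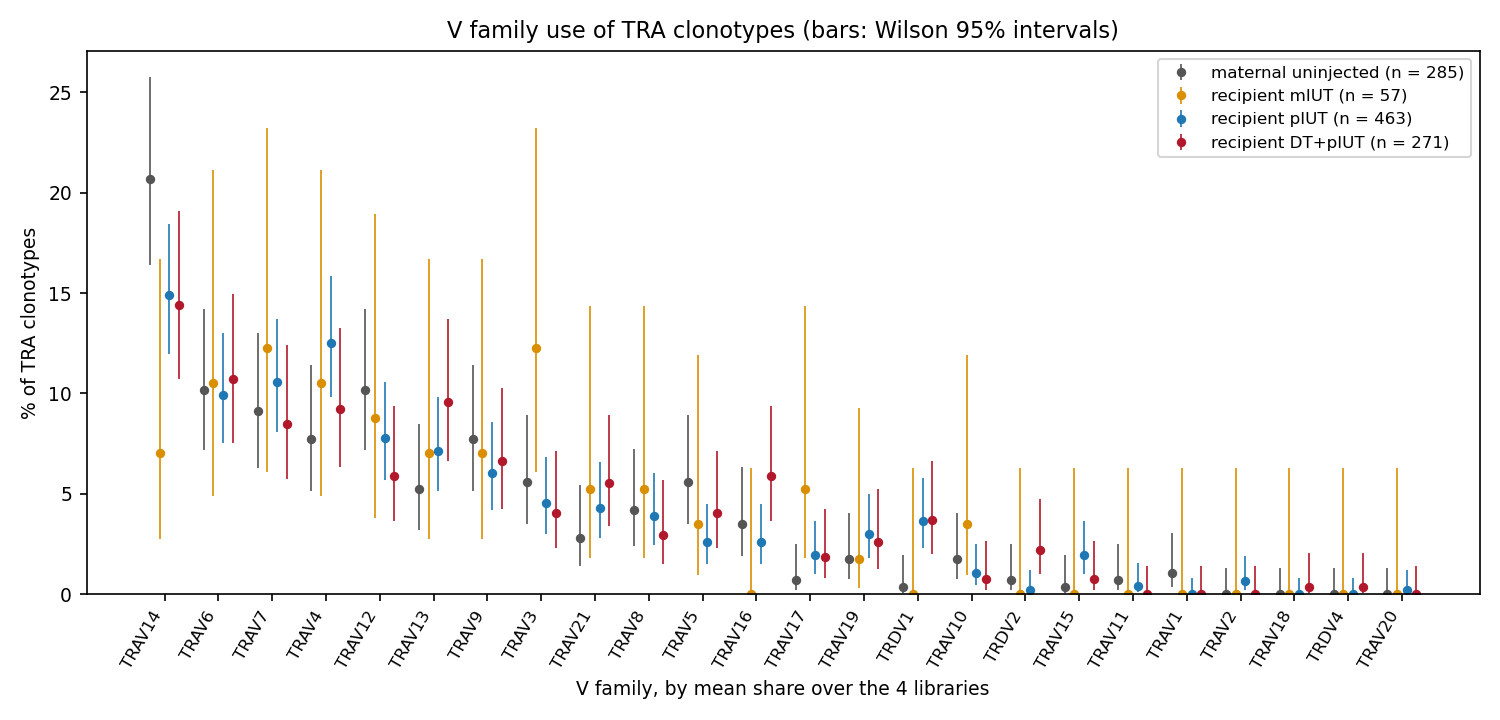
Share of TRA clonotypes by V family (horizontal axis, ordered by mean share) in the 4 libraries with over 50 clonotypes; points are percentages and bars Wilson 95% intervals. Intervals of the libraries overlap for most families, while TRDV1 sits at 3.67 and 3.69% in recipient pIUT and DT+pIUT against 0.351% in maternal uninjected.

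Delta V segments joined to alpha J segments were found at the J-proximal end. TRDV1 (chr14:54119069-54119674, V rank 7), a V segment usually joined in the TCR delta chain, was joined to TRAJ segments 17 times in recipient pIUT, 10 times in recipient DT+pIUT, 2 times in maternal DT+pIUT and 1 time in maternal uninjected. With TRDV2 and TRDV4 the total was 18 of 463 (3.89%) in recipient pIUT and 17 of 271 (6.27%) in recipient DT+pIUT, compared with 3 of 285 (1.05%) in maternal uninjected. The differences from maternal uninjected were 2.84 points (0.389 to 5.12) and 5.22 points (2.16 to 8.83). Recipient mIUT had 0 of 57, which allows a share of up to 5.26% as 3 counts of the total, or 6.31% as the upper Wilson limit. The 2 largest TRDV1 clonotypes of each library that had any are printed because they show both kinds of junction with the same V segment.
maternal uninjected, TRDV1 with TRAJ37: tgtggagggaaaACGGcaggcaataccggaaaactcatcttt
maternal DT+pIUT, TRDV1 with TRAJ57: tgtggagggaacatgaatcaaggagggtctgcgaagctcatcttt
maternal DT+pIUT, TRDV1 with TRAJ57, second: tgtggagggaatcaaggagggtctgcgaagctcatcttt
recipient pIUT, TRDV1 with TRAJ58: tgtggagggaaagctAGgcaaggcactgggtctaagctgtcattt
recipient pIUT, TRDV1 with TRAJ57: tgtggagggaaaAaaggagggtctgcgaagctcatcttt
recipient DT+pIUT, TRDV1 with TRAJ57: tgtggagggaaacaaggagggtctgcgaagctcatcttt
recipient DT+pIUT, TRDV1 with TRAJ58: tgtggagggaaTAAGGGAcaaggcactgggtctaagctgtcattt

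All of these used TRAJ57 or TRAJ58 except the single maternal uninjected clonotype, which used TRAJ37 and had 4 N bases.

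Proximal V segments were used more in the 3 recipient libraries with a transplant than in maternal uninjected. The 45 V segments nearest to J held 83 of 285 clonotypes (29.1%, 24.2 to 34.6%) in maternal uninjected, 27 of 57 (47.4%, 34.99 to 60.08%) in recipient mIUT, 192 of 463 (41.5%, 37.1 to 46.0%) in recipient pIUT and 126 of 271 (46.5%, 40.6 to 52.4%) in recipient DT+pIUT. Recipient pIUT exceeded maternal uninjected by 12.3 points (5.28 to 19.1) and recipient DT+pIUT exceeded it by 17.4 (9.33 to 25.1). With the nearest 67 V segments counted as proximal, the differences were 5.09 (-2.09 to 12.3) and 7.03 points (-1.08 to 15.0), and both intervals hold 0. The 2 recipient libraries differed by 5.03 points, with an interval of -2.38 to 12.4 that holds 0. At the limit, TRAV6-5 was the last segment inside, with 15 clonotypes, and TRAV9-1 the first outside, with 23. In the small libraries the counts were 0 of 2 in maternal mIUT, 0 of 8 in maternal pIUT, 5 of 12 in maternal DT+pIUT and 3 of 9 in recipient uninjected. The nearest V segment used was TRDV4, rank 1, in 1 clonotype of recipient DT+pIUT, and the farthest TRAV1, rank 135, in 3 clonotypes of maternal uninjected and 1 of maternal mIUT.

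The V genes of the gene count table, which do not depend on the MiXCR assembly, gave another order among the recipients of transplants but again the lowest value of the 4 large libraries in maternal uninjected. Of counts on 118 V genes, proximal V genes took 41.6% in maternal uninjected, 56.7% in recipient mIUT, 58.7% in recipient pIUT and 70.3% in recipient DT+pIUT. They took 51.0% of 1558 V counts in recipient uninjected, which had no transplant, and 5.85%, 38.7% and 61.0% in maternal mIUT, pIUT and DT+pIUT. The 13 V genes nearest to J took 9.93% in maternal uninjected, 29.2% in recipient uninjected and 24.7, 34.1 and 49.0% in recipient mIUT, pIUT and DT+pIUT. Recipient uninjected thus lay above maternal uninjected in both measures. Reads of unrearranged V segments could count here too. So could TCR delta transcripts, because the 118 V genes include Trdv genes and TRAV segments can also join TRDJ. MiXCR lines of TRAV with TRDJ held 111 reads in maternal uninjected and 718 in recipient uninjected. They held 50, 749 and 408 in recipient mIUT, pIUT and DT+pIUT. In recipient uninjected, 0 of 9 TRA clonotypes used the 13 nearest V segments. The part of delta transcripts in these shares was not tested. Across 27 V families the Spearman correlation of gene counts with clonotype numbers was 0.903 in maternal uninjected, 0.732 in recipient mIUT, 0.653 in recipient pIUT and 0.735 in recipient DT+pIUT, as a description of families that share a library and differ in the number of copies. The 60 Traj rows of that table were at 0 in every library, so J use is known from the clonotypes alone.

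**Figure D3:**
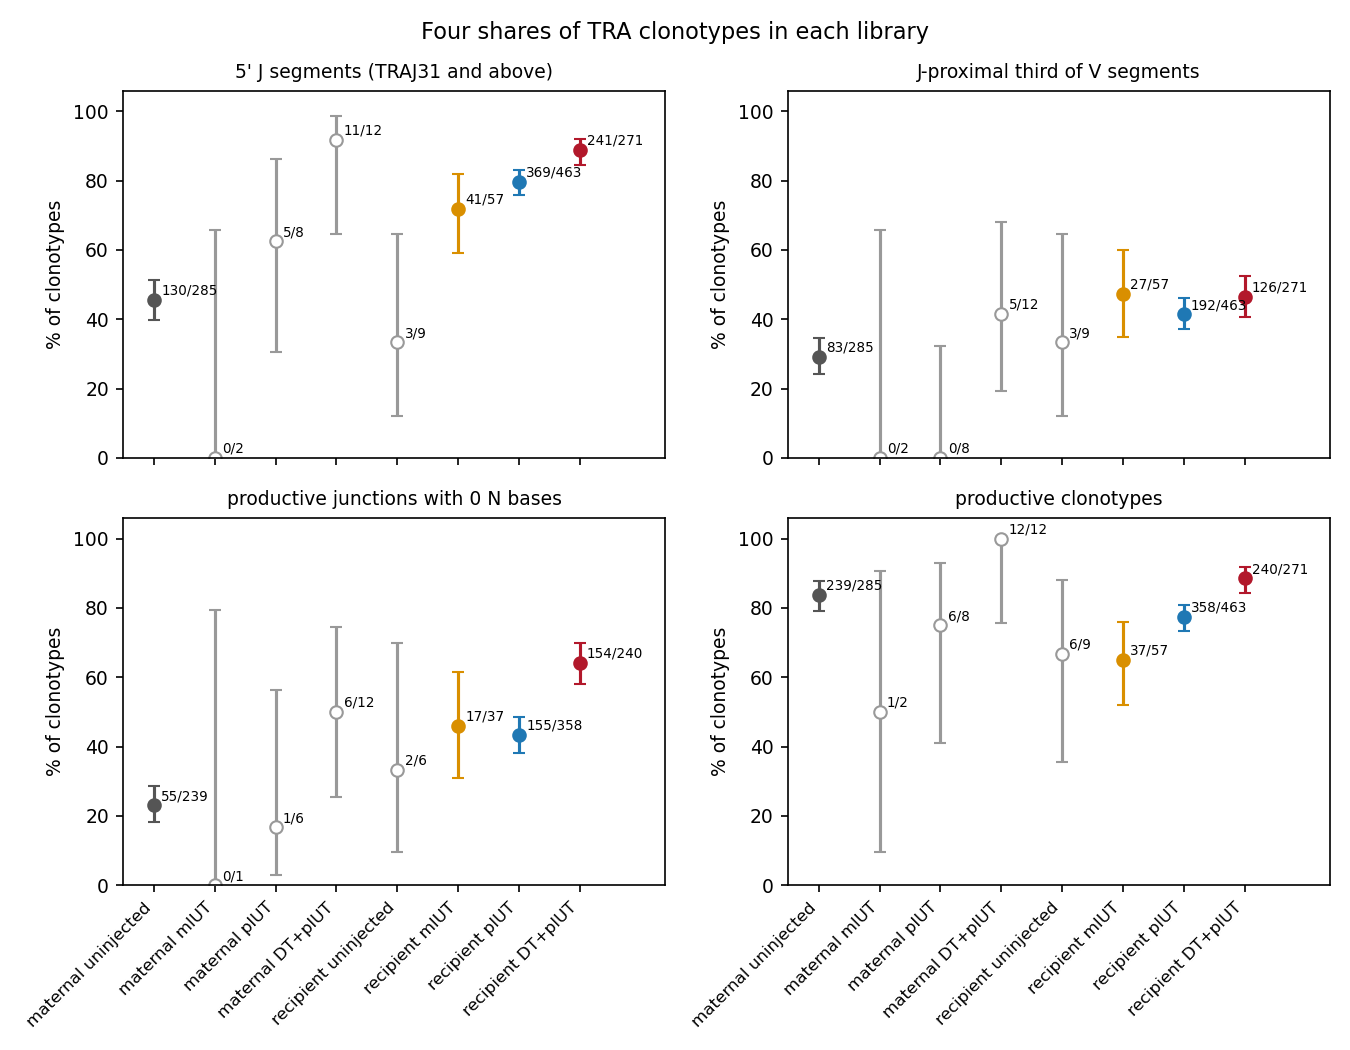
Percentage of TRA clonotypes with a 5′ J segment, with a proximal V segment, with 0 N bases (among productive clonotypes) and productive, in each library; bars are Wilson 95% intervals, open grey points are libraries with 12 or fewer clonotypes and the labels give the counts. Recipient DT+pIUT lies highest of the 4 large libraries for 5′ J, at 88.9%, and for junctions without N bases, at 64.2%.

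Near V segments were joined to near J segments more often than distal ones in 3 of the 4 large libraries, and not in recipient mIUT. The Spearman correlation of V rank with J rank over clonotypes was 0.36 in maternal uninjected (n = 285), 0.31 in recipient pIUT (n = 463), 0.21 in recipient DT+pIUT (n = 271) and 0.01 in recipient mIUT (n = 57), where it was -0.30 over the 37 productive clonotypes. Clonotypes of 1 library share its pool of pups, and some lines share a CDR3, so the correlations are descriptions. In maternal uninjected, 5′ J was used by 64 of 83 clonotypes with proximal V (77.1%), 33 of 107 with V ranks 46 to 90 (30.8%) and 33 of 95 with distal V (34.7%). Proximal and distal V thus differed by 42.4 points (28.1 to 54.1) within that library. The same difference was 22.1 points (12.88 to 31.48) in recipient pIUT, from 88.5% to 66.4%, and 9.37 points (0.790 to 20.2) in recipient DT+pIUT, from 94.4% to 85.1%. Distal V segments therefore carried 5′ J in 85.1% of cases in recipient DT+pIUT and in 34.7% in maternal uninjected, and proximal V segments in 94.4% and 77.1%. In recipient mIUT the values were 17 of 27 with proximal and 11 of 15 with distal V.

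Among the 13 V segments nearest to J, all 18 clonotypes of maternal uninjected, 60 of 62 of recipient pIUT and 44 of 45 of recipient DT+pIUT used 5′ J, and 5 of 7 of recipient mIUT did. The median distance between the starts of the V and J segments on the chromosome was 930.3 kb in maternal uninjected, 707.7 kb in recipient mIUT, 789.2 kb in recipient pIUT and 724.3 kb in recipient DT+pIUT.

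**Figure D4:**
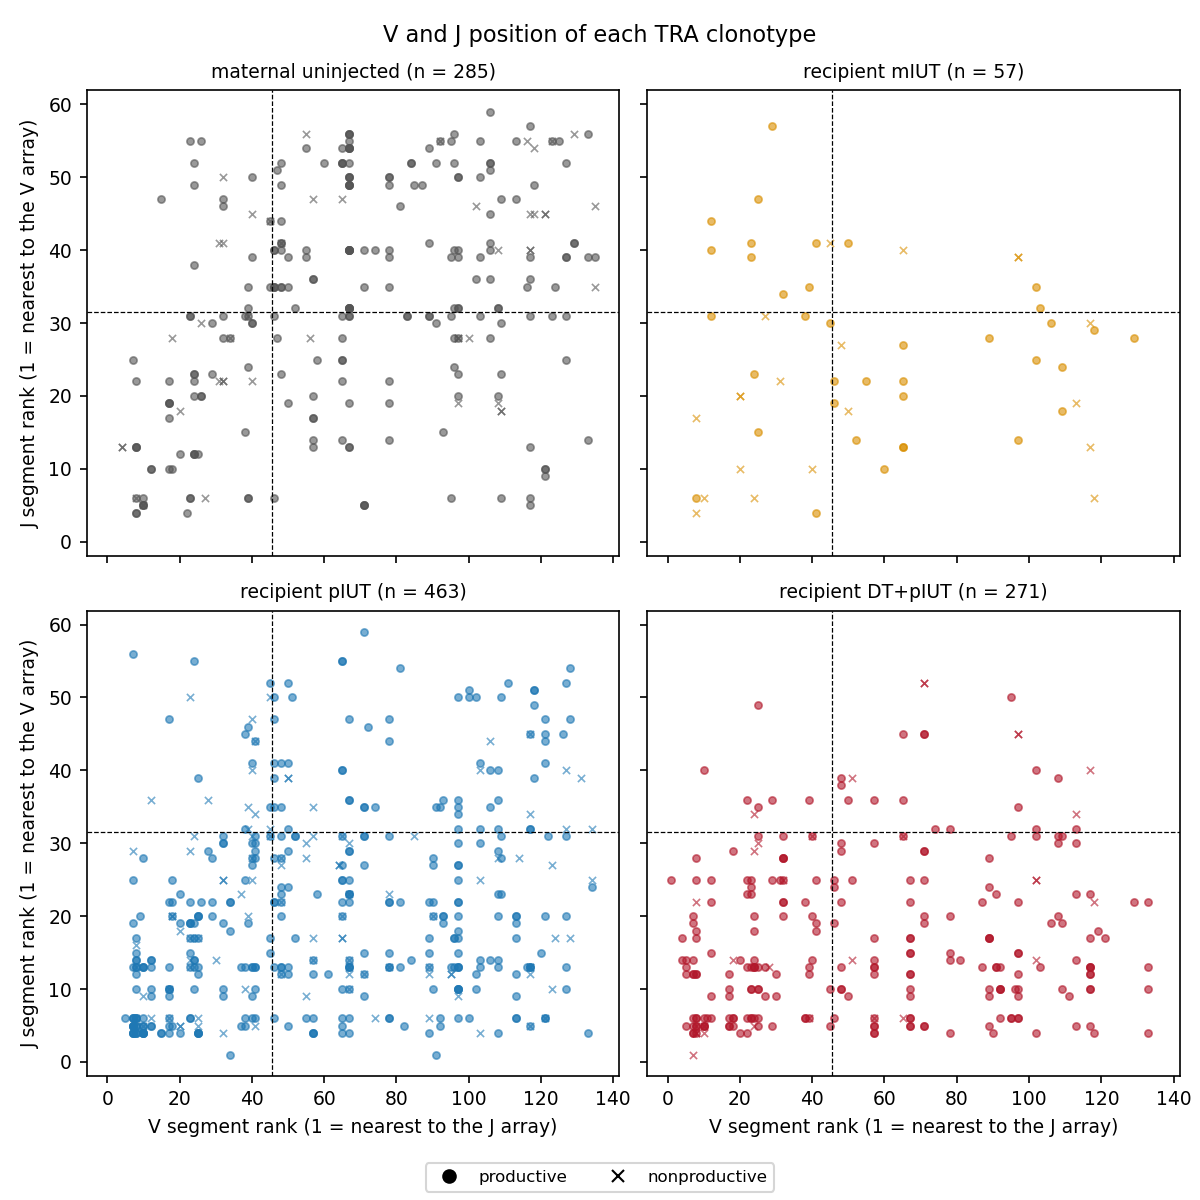
V rank (horizontal axis, 1 nearest to J) against J rank (vertical axis, 1 nearest to V) of each TRA clonotype in the 4 libraries with over 50 clonotypes; circles are productive, crosses nonproductive, and dashed lines mark the limits of proximal V and 5′ J. In maternal uninjected and recipient pIUT points are sparser at upper left than at upper right, and recipient DT+pIUT has few above the horizontal line at any V rank.

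Of the large libraries, those of transplant recipients had more junctions without N bases than maternal uninjected. Cell origin and transplantation cannot be told apart here either. Among productive clonotypes, 55 of 239 had 0 N bases in maternal uninjected (23.0%, 18.1 to 28.8%), 17 of 37 in recipient mIUT (45.9%, 31.04 to 61.62%), 155 of 358 in recipient pIUT (43.3%, 38.3 to 48.5%) and 154 of 240 in recipient DT+pIUT (64.2%, 57.9 to 70.0%). Recipient pIUT exceeded maternal uninjected by 20.3 points (12.6 to 27.4), recipient DT+pIUT exceeded it by 41.2 (32.7 to 48.7), and recipient DT+pIUT exceeded recipient pIUT by 20.9 (12.8 to 28.6). For up to 2 N bases the same differences were 10.6 (3.11 to 18.1), 19.3 (11.6 to 26.8) and 8.75 points (2.12 to 14.98). Recipient mIUT and recipient pIUT differed by 2.65 points with an interval from -13.1 to 19.1. The mean number of N bases was 2.14 ± 1.93 (SD over clonotypes) in maternal uninjected, 1.11 ± 1.29 in recipient mIUT, 1.54 ± 2.69 in recipient pIUT and 0.938 ± 1.58 in recipient DT+pIUT. Junctions of 5 or more N bases numbered 31 of 239, 0 of 37 (up to 8.11% or 9.41% by the same limits), 19 of 358 and 12 of 240. In the small libraries, 0 N bases were found in 6 of 12 productive clonotypes of maternal DT+pIUT and 2 of 6 of recipient uninjected. The counts were 1 of 6 in maternal pIUT and 0 of 1 in maternal mIUT.

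Overlap of V and J, where the same bases could have come from either segment, went the same way. It was found in 12.6% of productive clonotypes of maternal uninjected, 21.6% of recipient mIUT, 27.7% of recipient pIUT and 108 of 240 of recipient DT+pIUT. The difference between recipient DT+pIUT and pIUT was 17.35 points (9.5003 to 25.04). Junctions with 5′ J and with 3′ J had similar shares without N bases within maternal uninjected (22.2% and 23.7%) and within recipient pIUT (43.4% and 43.1%), and the intervals of these differences, -11.9 to 9.41 and -12.5 to 12.6 points, hold 0. Recipient pIUT exceeded maternal uninjected by 21.1 points (10.76 to 30.08) among 5′ J junctions and by 19.4 (5.97 to 32.6) among 3′ J junctions. In recipient DT+pIUT they were 62.8% and 77.3%, the latter from 22 clonotypes. In nonproductive clonotypes, which are not selected for a receptor, 0 N bases were found in 11 of 46 (23.9%), 12 of 20, 31 of 105 (29.5%) and 17 of 31 (54.8%) in maternal uninjected, recipient mIUT, pIUT and DT+pIUT. There the interval of the difference between recipient pIUT and maternal uninjected, -10.5 to 19.3 points, holds 0, and that between recipient DT+pIUT and maternal uninjected, 8.84 to 49.8, does not. Recipient mIUT lay above maternal uninjected by 36.1 points (10.6 to 56.8) and, unlike among productive clonotypes, above recipient pIUT by 30.5 (7.19 to 50.2), and recipient DT+pIUT lay above recipient pIUT by 25.3 (5.87 to 43.1).

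Since the aligner tolerates mismatches, each productive CDR3 was also read against the GRCm39 genome, counting the bases left between the longest exact match to a V segment of its family and the longest exact match to its J segment. No base was left in 32 of 224 placed junctions (14.3%) in maternal uninjected, 9 of 37 (24.3%) in recipient mIUT, 112 of 347 (32.3%) in recipient pIUT and 116 of 236 (49.2%) in recipient DT+pIUT. The shares were lower than those from MiXCR, and by construction a single base that departs from the B6 genome, as a BALB/c allele can, ends a match. Recipient pIUT lay 17.99 points (10.99 to 24.45) above maternal uninjected and recipient DT+pIUT 16.9 points (8.77 to 24.8) above recipient pIUT.

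CDR3 length was 40.4 ± 3.81 bases in maternal uninjected, 40.0 ± 3.61 in recipient mIUT, 40.8 ± 4.67 in recipient pIUT and 40.4 ± 4.12 in recipient DT+pIUT (mean ± SD over productive clonotypes), with standard errors of these means of 0.246, 0.593, 0.247 and 0.266 bases over clonotypes. In the small libraries the 6 productive clonotypes of maternal pIUT had an SD of 2.95 bases around a mean above that of each large library, and the length was 43.2 ± 5.79 in maternal DT+pIUT (12) and 41.5 ± 3.51 in recipient uninjected (6), and the single productive clonotype of maternal mIUT had 45 bases. Medians were 42 bases in maternal uninjected and 39 in the 3 recipient libraries. The mean of productive junctions without N bases lay below that of junctions with N bases in each of the 4 large libraries, at 40.0 against 40.5, 39.0 against 40.8, 39.6 against 41.7 and 39.6 against 41.6 bases, in the same order. Junctions with N bases were longer by 2.12 bases (95% interval over clonotypes 1.21 to 3.03) in recipient pIUT and by 1.97 (0.899 to 3.05) in recipient DT+pIUT, whereas the intervals in maternal uninjected (-0.481 to 1.55) and recipient mIUT (-0.456 to 4.06) hold 0. The longest productive CDR3, of 78 bases with 42 bases called N, was a TRAJ48 clonotype of recipient pIUT.

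**Figure D5:**
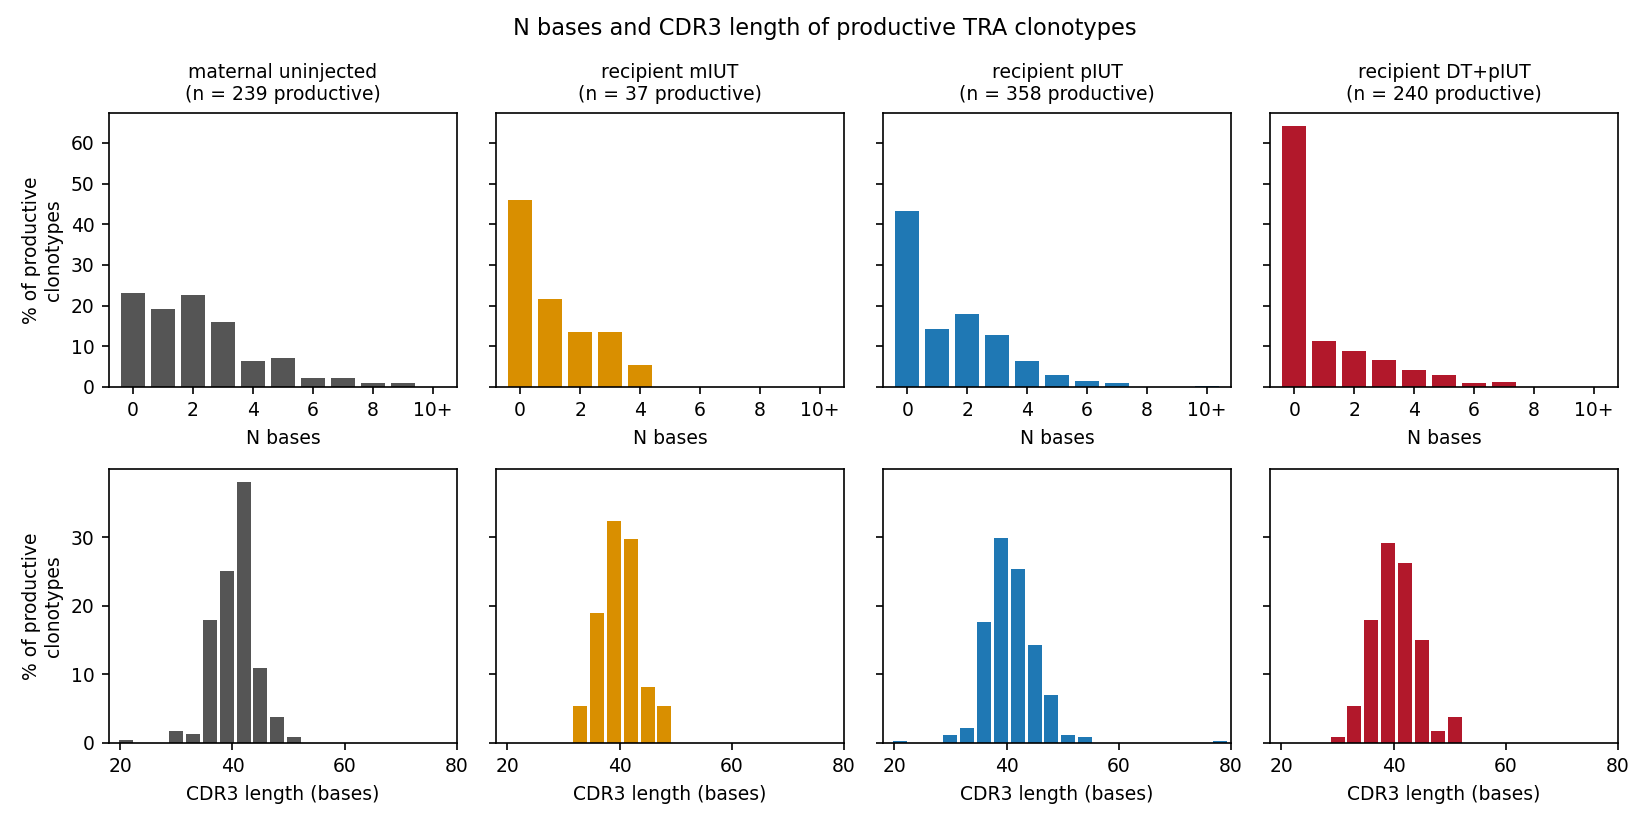
Percentage of productive TRA clonotypes (vertical axes) by number of N bases (upper row, 10 and above pooled) and by CDR3 length in bases (lower row) in the 4 libraries with over 50 clonotypes. The bar at 0 N bases rises from 23.0% in maternal uninjected to 64.2% in recipient DT+pIUT, while the length profiles centre near 40 bases in all 4.

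Reading frame differed between the recipient libraries. Productive clonotypes were 239 of 285 (83.9%, 79.1 to 87.7%) in maternal uninjected, 37 of 57 (64.9%, 51.9 to 76.0%) in recipient mIUT, 358 of 463 (77.3%, 73.3 to 80.9%) in recipient pIUT and 240 of 271 (88.6%, 84.2 to 91.8%) in recipient DT+pIUT. Recipient DT+pIUT exceeded recipient pIUT by 11.2 points (5.61 to 16.4), and recipient mIUT differed from recipient pIUT by -12.4 points (-25.9 to -0.613), an interval that held 0 under each of the 5 other settings that count clonotypes. Recipient pIUT differed from maternal uninjected by -6.54 points (-12.1 to -0.616), or -6.16 (-12.1 to 0.180) with repeated lines merged, and the interval for recipient DT+pIUT against maternal uninjected, -1.08 to 10.4, holds 0. Nearly all nonproductive clonotypes were out of frame, with 45, 20, 105 and 30 in these libraries, and only 1 each of maternal uninjected and recipient DT+pIUT was in frame with a stop codon. All 12 clonotypes of maternal DT+pIUT, 6 of 8 of maternal pIUT, 6 of 9 of recipient uninjected and 1 of 2 of maternal mIUT were productive.

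Small miscounts of bases can change the frame of a line. In maternal pIUT, 3 lines of TRAV6D-6 with TRAJ40, printed to show this, differed only in the length of a run of C and held 47, 4 and 3 reads; the first and second were out of frame and the third productive.
47 reads: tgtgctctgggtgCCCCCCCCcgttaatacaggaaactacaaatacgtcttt
4 reads: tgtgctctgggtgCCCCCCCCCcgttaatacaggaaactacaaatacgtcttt
3 reads: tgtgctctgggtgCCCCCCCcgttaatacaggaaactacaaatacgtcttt

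Across the libraries, 48 lines were 1 base from a clonotype of at least 5 times their reads with the same V family and J segment, and 5 of these were nonproductive next to a productive one. A further 89 lines repeated the CDR3, V family and J segment of another line under a different V copy, 37 of them in maternal uninjected and 40 in recipient pIUT.

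Identical CDR3 sequences were rarely found in more than 1 library. Of 1002 distinct TRA CDR3 sequences 10 were in 2 libraries and none in 3, and 9 of the 10 were productive with 0 N bases, whereas 41.9% of all distinct sequences had 0 N bases. Recipient pIUT and recipient DT+pIUT shared 6, which is 1.43% of the former and 2.27% of the latter. These 6 used TRAV14 with TRAJ37, TRAV21-DV12 with TRAJ56, TRAV14 with TRAJ56, TRAV4 with TRAJ56, TRAV4 with TRAJ30 and TRAV14 with TRAJ53. Maternal DT+pIUT and recipient pIUT shared 2, of TRDV1 with TRAJ57 and TRAV4 with TRAJ44, and recipient uninjected and recipient pIUT shared 1, of TRAV7-4 with TRAJ42. The shared junctions not yet printed, and that of TRDV1, are shown because all but the last lack any capital.
TRAV14 with TRAJ37: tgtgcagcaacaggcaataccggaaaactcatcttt
TRAV14 with TRAJ56: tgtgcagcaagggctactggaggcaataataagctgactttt
TRAV4 with TRAJ56: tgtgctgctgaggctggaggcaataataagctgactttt
TRAV4 with TRAJ30: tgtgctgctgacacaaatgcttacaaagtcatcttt
TRAV14 with TRAJ53: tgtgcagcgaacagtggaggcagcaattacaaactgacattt
TRDV1 with TRAJ57: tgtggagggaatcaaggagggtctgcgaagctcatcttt
TRAV4 with TRAJ44: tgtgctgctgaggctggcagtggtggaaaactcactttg
TRAV7-4 with TRAJ42: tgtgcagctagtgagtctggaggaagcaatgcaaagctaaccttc
TRAV14N-3 with TRAJ5: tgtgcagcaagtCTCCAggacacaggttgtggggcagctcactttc

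The last of them stood apart. TRAV14N-3 with TRAJ5 was out of frame, had 5 N bases and was found in maternal uninjected with 51 reads and in recipient uninjected with 179 reads, where it was 8.31% of TRA reads. Over all receptor chains, maternal and recipient uninjected shared 43 distinct CDR3 sequences, which is 36.4% of the 118 in recipient uninjected and 1.18% of the 3659 in maternal uninjected. Recipient uninjected also shared 39 (33.1%) with the 5271 of recipient pIUT, 34 (28.8%) with the 2872 of recipient DT+pIUT, 19 (16.1%) with the 642 of recipient mIUT, 6 (5.08%) with the 538 of maternal DT+pIUT and 1 each with maternal mIUT and pIUT, lists of unequal size. Whether these libraries share cells or molecules was not tested. Without CDR3 sequences present in another library, 5′ J use was 45.8% in maternal uninjected, 71.9% in recipient mIUT, 79.6% in recipient pIUT and 89.1% in recipient DT+pIUT.

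Invariant T cells carry fixed V and J pairs, TRAV11 with TRAJ18 in invariant natural killer T cells and TRAV1 with TRAJ33 in mucosal-associated invariant T cells. TRAV11D with TRAJ18 was found in maternal pIUT alone, with 63 reads or 20.2% of the TRA reads of that library, and a further line of 1 read had the same CDR3 under the copy TRAV11N. The junction, printed because it is the only one of its kind, had 1 N base.
TRAV11D with TRAJ18: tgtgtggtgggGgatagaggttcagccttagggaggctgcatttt
Zbtb16, the transcription factor PLZF of innate-like T cells, had 113 counts (2.86 CPM) in maternal pIUT, 57 in recipient mIUT, 41 in recipient pIUT, 5 in recipient DT+pIUT and 0 in the other 4 libraries. TRAV1 with TRAJ33 was found in no library, although TRAJ33 was used by 8 clonotypes of recipient pIUT, 5 of recipient DT+pIUT and 1 of recipient mIUT.

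Genes that act in rearrangement and in immature thymocytes differed between the libraries in which J use differed, and their part in J use was not tested. Rag1 and Rag2, the recombinase subunits, were at 0 in maternal and recipient uninjected. In the other maternal libraries Rag1 was 0.292 CPM in mIUT, 5.52 in pIUT and 2.80 in DT+pIUT, and Rag2 was 5.48, 0 and 2.23. In recipient cells Rag1 was 12.2 CPM in mIUT, 54.1 in pIUT and 10.4 in DT+pIUT, and Rag2 was 3.75, 33.2 and 13.2. Dntt, which encodes TdT, was 6.59 CPM in maternal uninjected and 2.40, 113.1 and 10.9 in recipient mIUT, pIUT and DT+pIUT. Dntt was thus highest in recipient pIUT, a library whose share of junctions without N bases lay between those of maternal uninjected and recipient DT+pIUT. In bulk RNA that holds markers of other cells, the cells that expressed Dntt, Rag1 and Rag2 cannot be told. Of the 12 recombination genes, 12 were above 3 counts in each recipient library with a transplant and in maternal DT+pIUT, 10 in maternal uninjected, 8 in maternal pIUT, 6 in recipient uninjected and 5 in maternal mIUT. Summed CPM of the 12 genes was 143.5 in maternal uninjected and 107.7, 572.9 and 276.5 in recipient mIUT, pIUT and DT+pIUT. In recipient uninjected it was 238.1. Recipient mIUT thus lay below maternal uninjected in this sum, although its 5′ J share was higher. The end-joining genes Xrcc5 and Xrcc6 were 15.5 and 44.0 CPM in maternal uninjected and 48.1 and 230.8 CPM in recipient pIUT. Other joining genes were lower in recipient pIUT, with 9.55 against 24.7 CPM for Polm, 6.27 against 11.8 for Poll and 7.17 against 8.01 for Dclre1c, and Lig4, Xrcc4, Nhej1 and Prkdc were higher there, at 24.9, 15.995, 22.3 and 7.35 CPM against 9.47, 6.95, 13.6 and 2.90.

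Ptcra, the pre-TCR alpha chain of immature thymocytes, was at 0 in maternal uninjected, at 80.6 CPM in recipient pIUT and at 18.7 CPM in recipient DT+pIUT. Themis, a signalling protein of developing T cells, was at 16.1, 76.2 and 15.3 CPM in the same libraries. Tcf7, Satb1, Cd8b1 and Cd1d1 of the same list were at 250.9, 202.4, 163.6 and 67.6 CPM in maternal uninjected, 796.9, 624.2, 255.0 and 40.2 in recipient pIUT and 159.2, 115.5, 35.2 and 32.8 in recipient DT+pIUT. Except for Ptcra, these genes were therefore lower in recipient DT+pIUT than in maternal uninjected. Ptcra was above 0 in every library but maternal uninjected, the other maternal libraries included. T cell markers were present throughout: of the 10 fixed, all were above 3 counts in maternal uninjected and in all 4 recipient libraries, 9 in maternal mIUT and maternal DT+pIUT and 7 in maternal pIUT. Cd4 was at 0 in maternal pIUT and maternal DT+pIUT. Summed CPM of the T cell markers was 2771 in maternal uninjected, 492.5, 173.3 and 348.7 in maternal mIUT, pIUT and DT+pIUT, 681.3 in recipient uninjected and 464.1, 4230 and 1264 in recipient mIUT, pIUT and DT+pIUT. Markers of other cells were present as well, with summed CPM of B cell markers between 25.9 in maternal DT+pIUT and 6682 in maternal uninjected, of erythroid markers between 92.6 and 118188, of myeloid markers between 1723 and 71313, and of natural killer cell markers between 0 and 223.3.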

How the data were processed

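RNA of 8 pooled libraries was sequenced by the authors. Clonotypes were assembled by the authors with MiXCR under settings for randomly fragmented RNA, and the deposited read counts per clonotype were used as they stood (the deposited clone fraction was not needed). The deposited gene table holds estimated counts, which were rounded, matched by gene ID to GENCODE vM39 names (51725 of 52784) and divided by the library total to give CPM. TRA clonotypes were read with Python 3.11.15, and segments were placed on GRCm39, while the authors used GENCODE M26. Germline bases are from the GRCm39 genome. N bases are those between the aligned V and J ends. Intervals were Wilson and Newcombe, checked on simulated data. Segments were named by mean share (5), by largest difference (3 each way) and by array end; clonotypes by reads, sharing and invariant pairs. The members and gene lists were chosen with earlier results of these data known. Other settings were at least 2 reads, merged lines, TRAV hits only, CDR3s of 1 library only, weighting by reads, productive and all clonotypes exchanged, up to 2 N bases, TRAJ42 and above, the nearest 67 V, no tied V and equal reads, and, chosen after seeing the data, no near copies, the nearest 13 V and pairs of libraries; the closing section gives their effect. One gene of the lists is not reported here.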

Additional observations from a re-analysis of the deposited data

Results flagged for a closer look

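TRA clonotype numbers moved in opposite directions in maternal and recipient cells in 4 of 5 contrasts of treatments, and the difference was not tested because each group is 1 library. The contrasts with uninjected cells all use the same maternal and recipient uninjected libraries, so they do not count separately. Those uninjected libraries were also pooled from more pups than the others. Relative to uninjected cells, the number changed by -283 (mIUT), -277 (pIUT) and -273 (DT+pIUT) in maternal cells and by 48, 454 and 262 in recipient cells. From pIUT to DT+pIUT it changed by 4 in maternal and -192 in recipient cells, and from mIUT to pIUT it rose in both, by 6 and 406. Trac from uninjected to pIUT changed by -280.0 CPM in maternal and 52.1 in recipient cells, and from mIUT to pIUT by -16.6 and 103.4 CPM. Its other changes had the same sign in both origins, -263.4 and -51.3 from uninjected to mIUT, -292.4 and -18.8 from uninjected to DT+pIUT, and -12.4 and -70.9 from pIUT to DT+pIUT.

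Lines with a TRAV hit but no TRAJ hit, outside the rule used here, numbered 6 in maternal uninjected, 0 in maternal mIUT and pIUT and 7 in maternal DT+pIUT; the last is 1 line above uninjected. In recipient cells they numbered 3 in uninjected, 12 in mIUT, 116 in pIUT and 87 in DT+pIUT. Each of these lines had a TRDJ hit.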

How the results depend on the processing

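The differences between libraries in 5′ J use, proximal V use, junctions without N bases and productive share kept their direction under every alternative for recipient pIUT or DT+pIUT against maternal uninjected and for recipient DT+pIUT against pIUT, nonproductive clonotypes alone not being among these alternatives. For recipient mIUT against pIUT, junctions without N bases and proximal V changed sign under 1 alternative each, and neither interval had left 0 out. The former also changed sign, to -7.95 points, when inserted bases were read against the genome. Of 112 intervals of these differences under other settings (computed after seeing the data, none when weighted by reads), 103 kept their side of 0. With TRAJ42 and above as 5′ J, recipient mIUT against pIUT came to exclude 0 (-16.9 points). Its productive share came to hold 0 with at least 2 reads, merged lines, TRAV hits only, CDR3s of 1 library only and no near copies (-11.9 to -10.9 points), and merged lines did the same for recipient pIUT against maternal uninjected (-6.16). Counting up to 2 N bases gave smaller differences of 10.6 points for recipient pIUT and 19.3 for recipient DT+pIUT against maternal uninjected, and 8.75 between the 2 recipient libraries. Counting the nearest 67 V segments as proximal gave 5.09 and 7.03 points for recipient pIUT and DT+pIUT against maternal uninjected, with intervals that came to hold 0. The rank correlation of V and J in recipient mIUT turned to -0.30 in productive clonotypes, -0.037 without tied V hits and -0.0035 without near copies. At 85 reads per library the clonotype numbers were 69.0 (maternal uninjected), 75.8 (recipient pIUT) and 70.8 (recipient DT+pIUT), and leaving out near copies (a setting chosen after seeing the data) lowered maternal pIUT to 5. The cause of these shifts was not tested. Maternal and recipient cells of a treatment came from harvests of the same group of pups. Taken as 4 pairs, a choice made after seeing the data, they differed by -123.2 ± 312.3 TRA clonotypes (SD) and 28.8 ± 144.8 Trac CPM, maternal minus recipient (exact two-sided sign-flip permutation p = 0.5 and 0.875, where 0.125 is the smallest possible), and maternal was higher in 1 of 4 and 2 of 4 pairs. The 4 pairs are 4 different treatments and cannot give a p below 0.125, so this test decides nothing about origin. Counts of 12 or fewer clonotypes limit 4 libraries.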
